A study of Mus musculus with 2 samples.

Results

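The genes of the lysosomal proton pump and its companions were followed across the cell classes of the embryonic mouse eye. The set held every gene whose symbol began with Atp6v0 or Atp6v1, the accessory genes Atp6ap1 and Atp6ap2, every cathepsin with a symbol made of Cts and a single letter, and Lamp1, Lamp2 and Gpnmb. This gave 45 of the 31053 genes in the files, of which 13 encode V1 subunits, 9 V0 subunits, 2 accessory proteins, 18 cathepsins and 3 membrane proteins. Single-cell RNA-seq was available from 2 libraries of e15.5 eye cups, from which cornea, lens and optic nerve had been removed. Both carried the floxed alleles: the control library was labelled Myrf fl/fl, and its mutant counterpart, Rx>cre Myrf fl/fl, also carried a Cre transgene driven by Rx, which acts in the early eye field and so in the neural retina as well as in the retinal pigment epithelium (RPE). Each library pooled 3 eye cup samples dissociated with papain, and the labels do not tell these samples apart. With 1 library for each genotype there was no replicate, no test was possible, and every interval given covers counting error only.

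The files held 13017 control and 13880 mutant barcodes with a median of 9339 and 8702 UMIs (unique molecular identifiers, each counting 1 captured transcript), and the 2 libraries shared 69 barcode sequences. After filtering, 11518 and 12576 cells remained, and 14.7% and 14.3% of them fell in clusters that were left unnamed. Myrf itself stood at 78.3 CPM (a gene's UMIs in a class, scaled to a class total of 1000000) in control and 29.6 CPM in mutant RPE-like cells, from 293 and 55 UMIs, a ratio of 0.378 (95% interval 0.278 to 0.505). Reads from the 3′ end need not cross a deleted exon, so this level does not by itself show the deletion. RPE-like cells formed 1 cluster of 369 control and 204 mutant cells, with a median of 6747 and 3558 UMIs. Their RPE markers summed to 4077 and 4087 CPM, against 121 and 101 CPM in melanocyte-like cells, but Rpe65 was at 0 in both libraries and Rgr at 0 in the mutant. Most of that sum was Ttr, at 2978 and 3248 CPM, which was uneven: in cells thinned to 10000 UMIs it was seen in 34.6% and 39.7% of cells, with a median of 0 and up to 1080 and 1446 UMIs in a single cell, so equal sums do not show a matched identity. Rlbp1 was at 344 and 227 CPM, Rdh5 at 215 and 173 CPM and Stra6 at 296 and 300 CPM, each with at most 7.04 CPM in melanocyte-like cells. The leading genes of that cluster were Ttr together with pigment genes such as Pmel, Trpm1, Mlana and Tyr, of which Mlana and Tyr also stood in the melanocyte marker list. Pax3, a neural crest marker, had 0 UMIs in control and 1 in mutant RPE-like cells, against 193 and 122 in melanocyte-like cells. Markers of other classes were present in RPE-like cells: erythroid markers, mostly haemoglobin genes, summed to 5924 and 4841 CPM, more than the RPE markers, retinal progenitor markers to 683 and 964 CPM, and lens markers to 717 and 684 CPM, and their part in the results was not tested. At a clustering resolution of 2.0 only 55 control and 29 mutant cells kept the RPE name. Melanocyte-like cells numbered 50 and 30, and macrophage-like cells 150 and 175.

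The V-ATPase acidifies lysosomes and melanosomes: its cytosolic V1 sector hydrolyses ATP, and its membrane V0 sector carries the protons. Cathepsins are proteases, most of which work in the acid interior of the lysosome, and LAMP1, LAMP2 and GPNMB are glycoproteins of lysosomal and melanosomal membranes. RPE cells use this system both to build pigment granules in the embryo and, after birth, to degrade shed photoreceptor outer segments. Transcription factors of the MiT/TFE family, which include MITF and TFEB, bind E-box sequences with the core CACGTG or CATGTG in front of many of these genes.

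The sequence CACGTG was therefore sought near the start sites of the members, on both strands, in RefSeq windows (GRCm38.p6) from 250 bases before to 50 bases after each start. Windows were given for 35 of the 45 members, and 9 of the 35 (25.7%) held CACGTG, against 8.82% of 19407 genes with a window. The longer form TCACGTG, which contains the first motif, stood in 7 (20%) against 4.9% of all genes. TCATGTG, a different sequence, stood in 3 (8.57%: Atp6v0c, Ctsa and Ctss) against 3.67%. These are matches of letters and not measured binding sites. The genes with CACGTG were Atp6v0b, Atp6v0d1, Atp6v0e, Atp6v1a, Ctsa, Ctsd, Ctsf, Ctsl and Lamp1. Among melanosome genes with a window, TCATGTG was found in 4 of 6 (66.7%: Dct, Slc24a5, Tyr and Tyrp1) and CACGTG in 1 (Rab27a).

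The 30-base runs around the motif, in capitals, are shown for Lamp1, Atp6v0b, Ctsa and Ctsd, which held more than 1 copy, and for Atp6v1a, the catalytic subunit, and Ctsl, an abundant cathepsin of RPE-like cells. Lamp1 held 4 copies and Atp6v0b, Ctsa and Ctsd 2 each. All runs read 5′ to 3′ on the strand of the gene, and distances count from the RefSeq start site to the first base of the motif. The runs of Ctsd, Ctsl, Atp6v1a and Ctsa lie inside the longer gene spans of the GENCODE annotation, in which some transcripts start further upstream.
Lamp1, chr8:13159088-13159117 on the plus strand, 61 bases upstream: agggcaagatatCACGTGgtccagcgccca
Lamp1, chr8:13159134-13159163 on the plus strand, 15 bases upstream: acgtgaccacatCACGTGcggaacggagcc
Atp6v0b, chr4:117887330-117887359 on the minus strand, 18 bases upstream: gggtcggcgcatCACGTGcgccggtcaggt
Ctsa, chr2:164833749-164833778 on the plus strand, 12 bases upstream: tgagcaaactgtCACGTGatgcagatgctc
Ctsd, chr7:142387908-142387937 on the minus strand, 98 bases upstream: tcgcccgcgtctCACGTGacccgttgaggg
Atp6v1a, chr16:44139373-44139402 on the minus strand, 131 bases upstream: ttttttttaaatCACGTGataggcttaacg
Ctsl, chr13:64370739-64370768 on the minus strand, 236 bases upstream: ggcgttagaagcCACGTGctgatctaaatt

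Across the named classes, pigmented cells and macrophages held the highest levels of all members summed together, although single members peaked in other classes. Summed over the 24 V-ATPase and accessory genes, melanocyte-like cells stood at 3986 CPM in control and 3730 CPM in mutant, RPE-like cells at 3211 and 3113 CPM, and macrophage-like cells at 2924 and 2874 CPM. Retinal ganglion cell-like cells followed with 2738 and 2672 CPM. Retinal progenitor-like cells, the largest class with 4129 and 5357 cells, had 1234 and 1260 CPM, and erythroid-like cells 149 and 157 CPM. The cathepsin genes were ordered differently. Macrophage-like cells had 8044 and 8057 CPM, RPE-like cells 2998 and 3576 CPM, surface epithelium-like cells 2204 and 2402 CPM, and melanocyte-like cells 2133 and 2157 CPM.

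Retinal progenitor-like cells served as the common reference for folds between classes. In RPE-like cells 20 of 34 members with at least 20 UMIs (58.8%) lay at least 2-fold above progenitors in both libraries, against 14.8% of 14540 genes. The count was 21 of 34 (61.8%) in melanocyte-like cells, against 10.4% of genes, and 20 of 34 (58.8%) in macrophage-like cells, against 13.3%. These counts divided between the kinds of gene as follows, with no test of the difference. In macrophage-like cells 10 of 11 cathepsins but 2 of 11 V1 subunits passed, while in RPE-like cells 7 of 11 cathepsins and 6 of 11 V1 subunits did. The V1 counts depend on the 2-fold limit, since several V1 genes of macrophage-like cells lay just under it (Atp6v1f at 1.96-fold and 1.94-fold, Atp6v1g1 at 1.95-fold and 1.79-fold) and Atp6v1f of RPE-like cells just over it, at 2.34-fold and 2.31-fold. Of the V0 subunits 3 of 7 passed in RPE-like, 5 of 7 in melanocyte-like and 4 of 7 in macrophage-like cells, and Lamp1, Lamp2 and Gpnmb passed in all 3 classes, although Gpnmb in macrophages rested on a very low level. A low level in progenitors gives a large fold, so folds are given beside levels.

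**Figure D1:**
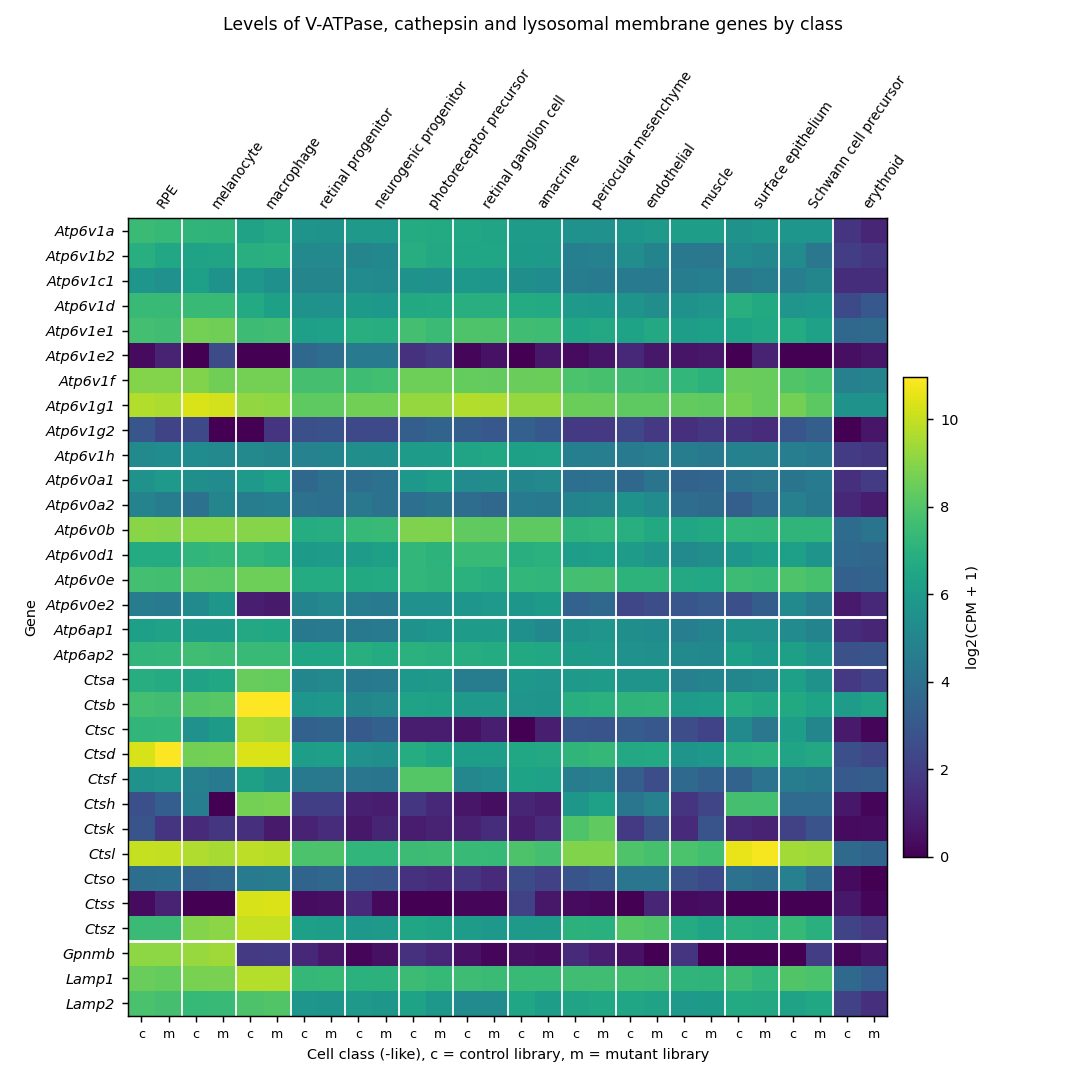
Levels of the members that reached 10 CPM in some class, as log2(CPM + 1) in colour, with 14 cell classes across (control library left, mutant library right in each pair) and genes down, grouped into V1, V0, accessory, cathepsin and membrane genes. Ctss is bright only in macrophage-like cells, Ctsk only in periocular mesenchyme-like cells and Gpnmb only in RPE- and melanocyte-like cells. Ctsf is highest in photoreceptor precursor-like cells, with lower levels in other classes such as amacrine-, macrophage- and RPE-like cells. The paired libraries look alike in most rows.

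Among V1 subunits, Atp6v1g1, a stalk subunit, was the most abundant by UMIs and peaked in melanocyte-like cells at 1287 and 1167 CPM, with 818 and 772 CPM in RPE-like cells. Atp6v1a, the catalytic subunit, was highest in RPE-like cells at 174 and 162 CPM, though its interval overlapped that of melanocyte-like cells. Atp6v1d, of the central rotor, and Atp6v1f stood highest there too, at 173 and 172 CPM and at 487 and 485 CPM. Atp6v1d overlapped with melanocyte-like cells in both libraries and Atp6v1f in the control. Relative to progenitors, Atp6v1a was 3.44-fold and 3.41-fold and Atp6v1d 3.72-fold and 3.78-fold higher in RPE-like cells. Atp6v1h, a regulatory subunit, was instead highest in retinal ganglion cell-like cells, at 84.2 and 91.9 CPM, where its interval overlapped with amacrine-like cells.

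Of the V0 sector, Atp6v0b, a proteolipid of the proton-carrying ring, reached 508 and 503 CPM in RPE-like cells, 4.63-fold and 4.48-fold over progenitors. Melanocyte-like cells held 522 and 519 CPM, and the intervals of RPE-, macrophage- and photoreceptor precursor-like cells overlapped theirs, so these 4 classes shared the top level. Atp6v0e and Atp6v0d1 peaked elsewhere, in macrophage-like cells (368 and 366 CPM) and in retinal ganglion cell-like cells (168 and 173 CPM). The interval of Atp6v0d1 overlapped there with melanocyte-like cells in both libraries, and with photoreceptor precursor- and macrophage-like cells in the control. Atp6v0c, the main ring proteolipid, was counted at only 4.01 and 3.22 CPM in RPE-like cells. This gene has near-identical processed pseudogenes, which can take its reads out of the count, so its level is uncertain.

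Several subunits are encoded by paralogous genes, and the share of each differed between classes. Because the 3′ ends of paralogs may be captured unequally, shares are compared between classes and not between genes. Subunit a places the pump in its membrane, and Tcirg1, the a3 form known from osteoclasts, was added from the list of pump partners. Atp6v0a1 made up 57.3% (51.6 to 62.9) and 65.5% (57.7 to 72.7) of subunit a UMIs in RPE-like cells, against 77.7% and 79.2% in photoreceptor precursor-like cells. Tcirg1 gave 8.09% (5.3 to 11.7) and 7.88% (4.26 to 13.1) in RPE-like cells, 27.1% and 28.3% in macrophage-like cells and 25.9% and 29.3% in melanocyte-like cells. It was nearly absent from retinal neurons, with 2 of 360 and 1 of 480 subunit a UMIs in retinal ganglion cell-like cells. Atp6v0a4, the kidney form, had 0 of 309 and 0 of 165 UMIs in RPE-like cells, and exact intervals reached 1.19% and 2.21%.

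For subunit e, Atp6v0e2 supplied 10.5% and 10.2% of UMIs in RPE-like cells, 29.6% and 33.4% in retinal ganglion cell-like cells, and 0.239% and 0.195% in macrophage-like cells. Atp6v1e2, known as the testis form of subunit E, was found in the retinal lineage: it reached 20.9 and 21.7 CPM in neurogenic progenitor-like and 12.1 and 14.4 CPM in retinal progenitor-like cells, where it made up 14.4% and 15.9% of subunit E UMIs. In RPE-like cells it had 1 and 2 UMIs. Atp6v0d2, an osteoclast and macrophage form, was seen with 3 and 3 UMIs in macrophage-like cells and 0 in RPE-like cells of both libraries.

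**Figure D2:**
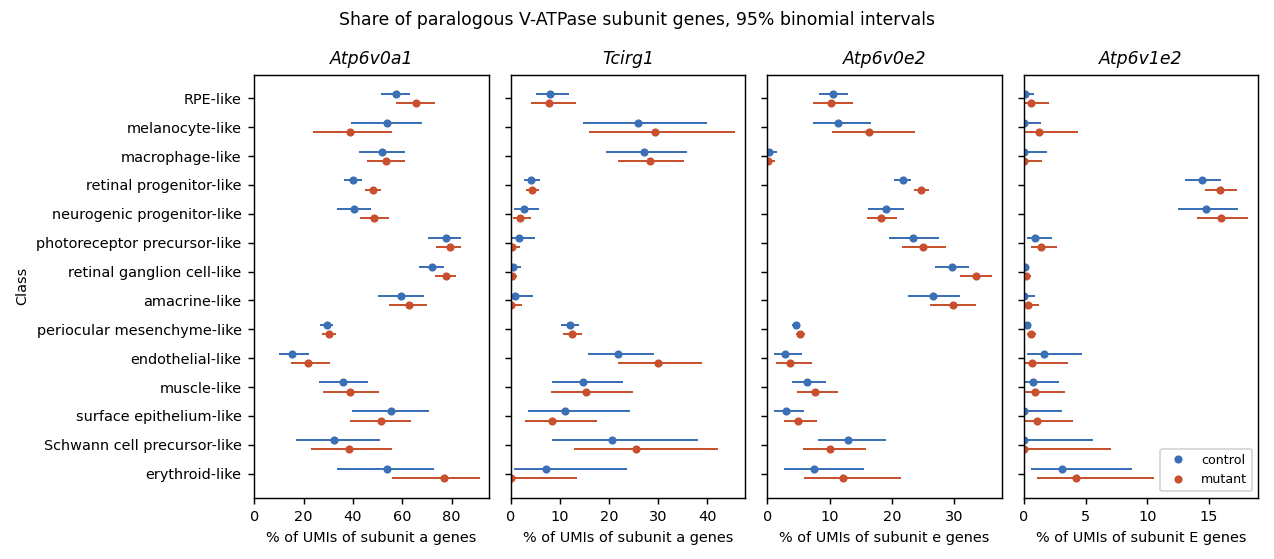
Share of UMIs (percent, with exact 95% binomial intervals) given by Atp6v0a1 and Tcirg1 among subunit a genes, Atp6v0e2 among subunit e genes and Atp6v1e2 among subunit E genes, in each class, for the control (blue) and mutant (orange) library. Tcirg1 lies at 8.09% and 7.88% in RPE-like cells and between 25.9% and 29.3% in melanocyte- and macrophage-like cells, and the widest intervals belong to classes with few UMIs, such as erythroid-like cells.

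Several cathepsins were found mainly in 1 class, while others were broad. Ctss, a cysteine protease of antigen-presenting cells, reached 1240 and 1352 CPM in macrophage-like cells and at most 3.38 CPM in any other named class. Ctsb, a cysteine protease, was highest there as well, at 1989 and 1987 CPM against 204 and 191 CPM in RPE-like cells. Ctsz, a carboxypeptidase, and Ctsc, which activates granule proteases, also peaked in macrophage-like cells. Ctsk, known for collagen breakdown by osteoclasts, stood at 245 and 309 CPM in periocular mesenchyme-like cells and at most 6.22 CPM in any other named class. Ctsf was highest in photoreceptor precursor-like cells, at 271 and 265 CPM, and Ctsl in surface epithelium-like cells, at 1547 and 1778 CPM. Ctsh, an aminopeptidase, stood at 404 and 426 CPM in macrophage-like and at 208 and 203 CPM in surface epithelium-like cells. Ctsj, Ctsm, Ctsq and Ctsr, cathepsins of the rodent placenta that lie together on chromosome 13, had 0 UMIs in all classes of both libraries.

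By UMIs, Ctsd, the main aspartic protease of the lysosome (chr7:142375911-142388038, minus strand, GRCm38), and Ctsl were the most abundant cathepsins of RPE-like cells. Ctsl, at 1026 and 983 CPM there, was not particular to them: macrophage-like cells had 920 and 875 CPM and melanocyte-like cells 806 and 746 CPM. Ctsd was at 1259 CPM in control and 1889 CPM in mutant RPE-like cells, 18.2-fold and 26.6-fold over progenitors. Macrophage-like cells had 1292 and 1307 CPM, which overlapped RPE-like cells in the control and lay below them in the mutant. Erythroid-like cells, which are expected to lack it, had 5.42 and 4 CPM, far under the RPE level. Ctsc was the second highest cathepsin by fold, with 148 and 153 CPM in RPE-like cells.

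The 2 pigmented classes were compared with each other. Of 31 members measured, 2 were at least 2-fold higher in RPE-like than in melanocyte-like cells in both libraries, where 9.35% of 11376 genes were, and 1 was at least 2-fold lower, where 7.52% were, so the counts lie near those shares. The higher ones were Ctsd, at 3.18-fold (2.81 to 3.61) in control and 4.6-fold (3.95 to 5.38) in mutant, and Ctsc, at 3.25-fold (2.26 to 4.82) and 2.5-fold (1.67 to 3.9). Ctsz was lower, with ratios of 0.36 (0.315 to 0.413) and 0.331 (0.279 to 0.394). Atp6v1e1 lay near the threshold, with ratios of 0.497 and 0.504, so that only the control library passed it. Gpnmb, a melanosomal glycoprotein, was at 554 and 553 CPM in RPE-like and 613 and 681 CPM in melanocyte-like cells. Macrophage-like cells, in which it can be induced by lysosomal stress in adults, held hardly any, with UMIs in 3 of 150 and 3 of 175 cells. After thinning each cell to 2000 UMIs, Gpnmb was seen in 52% and 49.2% of RPE-like cells and in 58% and 63.3% of melanocyte-like cells, while erythroid-like cells, which should lack it, had it in 0.211% of control cells and in 0 mutant cells.

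Between the genotypes, the summed pump genes of RPE-like cells lay near each other when all cells were used, and Ctsd was the abundant member with the largest difference. At the limit of 1.5-fold, 2 of 31 measured members were higher in the mutant, where 5.18% of 10958 genes were, and 2 were lower, where 8.38% were. The other 14 members had fewer than 20 UMIs in these cells and were not compared. With so few calls the counts lie near the background, and 3 of the 4 rest on few UMIs. Ctsd went from 1259 to 1889 CPM, from 4714 and 3515 UMIs, a ratio of 1.5 (1.44 to 1.57) that lies at the limit itself. Ctsh had 20 and 16 UMIs and a ratio of 1.61 (0.78 to 3.27), Ctsk 23 and 4 UMIs and 0.35 (0.088 to 1.02), and Atp6v1g2 25 and 7 UMIs and 0.563 (0.206 to 1.34), and all 3 intervals hold 1. For Ctsk, 65.2% of control and 100% of mutant UMIs came from the 5 richest cells of each library. Markers of periocular mesenchyme, where Ctsk is abundant, were at 499 and 489 CPM in RPE-like cells, and their part in it was not tested.

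Over the 18 measured V-ATPase and accessory genes the median log2 ratio was -0.058, beside -0.057 over all 10958 genes measured in RPE-like cells, and their summed level went from 3211 to 3113 CPM, a ratio of 0.969 (0.939 to 1). This ratio changed with the cells used: it was 0.857 (0.806 to 0.911) at a mitochondrial share of up to 5%, 1.16 (1.03 to 1.31) from 10 to 15%, and 0.82 (0.743 to 0.904) in cells of over 2000 and up to 10000 UMIs. Atp6v1g1, at 818 and 772 CPM, Atp6v0b, at 508 and 503 CPM, and Atp6v1f, at 487 and 485 CPM, had ratios of 0.944 (0.886 to 1.01), 0.991 (0.916 to 1.07) and 0.996 (0.919 to 1.08). Single genes moved with the cells too. Atp6v0b had 0.74 (0.563 to 0.964) in cells of over 2000 and up to 10000 UMIs and 1.59 (1.13 to 2.23) at a mitochondrial share of 10 to 15%. Atp6v1e1 was at 204 and 193 CPM (ratio 0.945, 0.832 to 1.07), and Atp6v0e at 204 and 198 CPM (0.972, 0.856 to 1.1). Atp6v1b2, which forms part of the catalytic head, was the only pump gene whose interval left out 1 over all RPE-like cells: it had 442 and 173 UMIs, 118 and 93 CPM, and a ratio of 0.787 (0.657 to 0.941). Atp6v0a1 leaned the other way, at 47.3 and 58 CPM (1.23, 0.957 to 1.57), and Atp6v0a2 was at 28.6 and 23.6 CPM (0.827, 0.569 to 1.19). Atp6v0d1, which links the ring to the rotor, was at 106 CPM in both libraries (0.84 to 1.19 around a ratio of 1). Atp6v1c1 had 0.861 (0.661 to 1.11), Atp6v1h 1.09 (0.813 to 1.46), Atp6ap1 1.1 (0.89 to 1.34) and Atp6ap2, also known as the prorenin receptor, 1.03 (0.889 to 1.19).

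Cathepsins had a median log2 ratio of 0.032 over 10 measured genes, and their summed level went from 2998 to 3576 CPM (ratio 1.19, 1.16 to 1.23), a difference smaller than that of Ctsd alone in CPM. The direction of this sum turned in some subsets, to 0.904 (0.845 to 0.967) at a mitochondrial share of up to 5% and 0.881 (0.795 to 0.975) in cells of over 2000 and up to 10000 UMIs. Ctsl, with 3839 and 1828 UMIs, was at 1026 and 983 CPM (0.958, 0.906 to 1.01) over all RPE-like cells. Its ratio was 0.784 (0.694 to 0.884) at a mitochondrial share of up to 5% and 1.67 (1.35 to 2.07) from 10 to 15%. Ctsb, Ctsz, Ctsc and Ctsa had ratios of 0.939, 1.01, 1.03 and 0.933 over all RPE-like cells, each with an interval that held 1. In subsets some intervals left out 1, in both directions. Ctsa had 0.57 (0.376 to 0.846) at a mitochondrial share of up to 5%, and from 10 to 15% Ctsz had 1.79 (1.06 to 3.02) and Ctsc 1.84 (1.1 to 3.06). Ctsf was at 47.8 and 51.6 CPM (1.08, 0.833 to 1.39) and Ctso at 14.4 and 15 CPM (1.04, 0.636 to 1.68). Lamp2, a receptor of chaperone-mediated autophagy, was 4.28-fold and 4.14-fold over progenitors in RPE-like cells, and Lamp1 2.26-fold and 2.03-fold. Between genotypes the membrane genes also lay close together, with Gpnmb at 554 and 553 CPM (0.998, 0.925 to 1.08), Lamp1 at 349 and 330 CPM (0.944, 0.857 to 1.04) and Lamp2 at 224 and 209 CPM (0.932, 0.824 to 1.05).

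**Figure D3:**
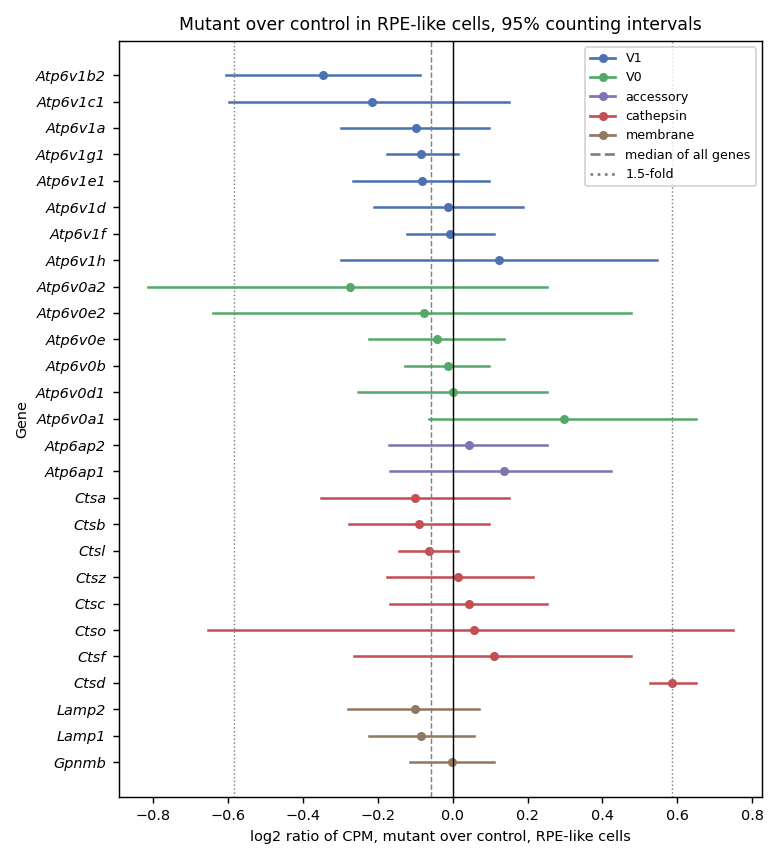
Ratio of mutant to control CPM in RPE-like cells on a log2 axis, for the members with at least 50 UMIs, with exact 95% intervals that cover counting error only and colours for the kind of gene. The dashed line marks the median of all genes (-0.057) and dotted lines mark 1.5-fold: Ctsd lies alone at the upper dotted line, and Atp6v1b2 is the only interval wholly under 0.

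The size of the Ctsd difference changed with the cells that were used. RPE-like cells of the mutant had fewer UMIs than those of the control, and the mutant held 100 of 204 cells with a mitochondrial share of up to 5%, against 144 of 369. Within that range Ctsd was at 1097 and 1171 CPM, a ratio of 1.07 (0.966 to 1.18), against 1.72 (1.63 to 1.81) from 5 to 10% and 1.16 (0.981 to 1.37) from 10 to 15%. Cells of up to 2000 UMIs gave 1.01 (0.785 to 1.3), cells above that and up to 10000 UMIs gave 0.8 (0.686 to 0.93), and cells over 10000 UMIs gave 1.64 (1.56 to 1.71). The last group held 162 control and 78 mutant cells and most of the UMIs. Ctsd was higher in the mutant among the deep cells and lower among those of middle depth, and the part of depth and mitochondrial share in the difference was not tested.

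The pools also differed in sex. No control RPE-like cell had UMIs of Y-linked genes without Xist, whereas 42 mutant cells did. Among cells with Xist and without Y-linked UMIs, 186 in control and 42 in mutant, Ctsd was at 1257 and 1530 CPM, a ratio of 1.22 (1.14 to 1.3). In the same cells the summed V-ATPase genes had a ratio of 0.925 (0.884 to 0.967). The members at least 1.5-fold lower there were Atp6v1b2 (0.644, 0.483 to 0.846), Atp6v1c1 (0.58, 0.366 to 0.886), Atp6v0a2 (0.537, 0.276 to 0.96) and Ctsk (0.584, 0.111 to 1.95). The share of all genes that were so much lower in this subset is not given, so their number is not read as a result. Within the mutant library Ctsd was at 2513 CPM in the Y-positive cells and 1530 CPM in the Xist-positive cells. This is a ratio of 1.64 (1.52 to 1.78), as large as that between the libraries. These 2 sets of cells come from different embryos of the pool, and sex and embryo cannot be told apart. Ctsl, at 1006 and 1074 CPM, did not follow Ctsd in this split (0.937, 0.84 to 1.04). Macrophage markers summed to 20 and 24.7 CPM in RPE-like cells of control and mutant, with 7 and 6 of 9 detected (C1qc and Aif1 at 0 in control, Tyrobp, Cx3cr1 and Aif1 at 0 in mutant), against 20692 and 22453 CPM in macrophage-like cells. Leaving out all RPE-like cells with UMIs of these markers or of Pax3 gave a log2 ratio of Ctsd of 0.30 in place of 0.59, but this filter also selected on depth: the cells left out had a median of 17224 and 19168 UMIs and those kept 5144 and 2394, so the parts of the markers and of depth cannot be told apart from it.

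**Figure D4:**
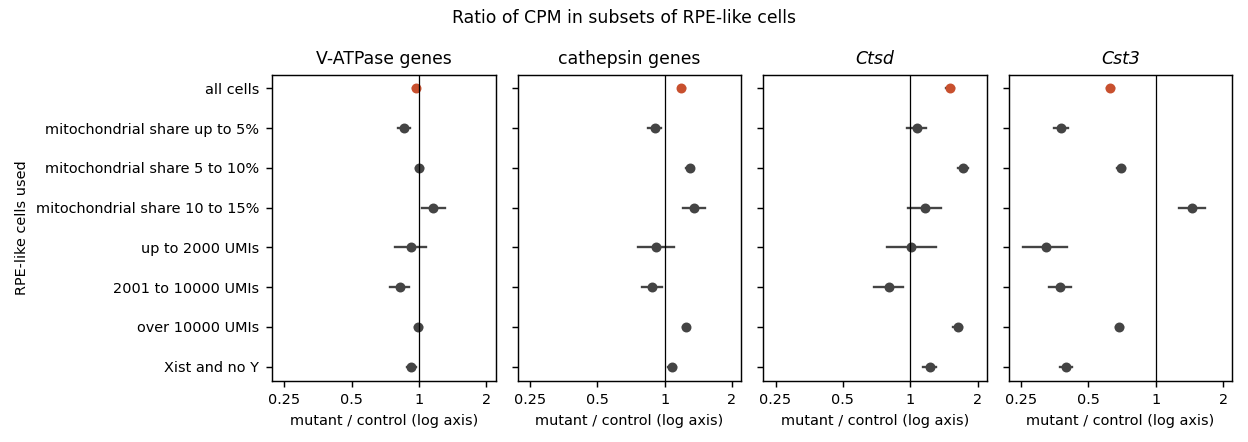
Ratio of mutant to control CPM (log axis, exact 95% intervals covering counting error only) for the summed V-ATPase genes, the summed cathepsin genes, Ctsd and Cst3, over all RPE-like cells (orange) and in subsets by mitochondrial share, UMIs per cell and Xist (dark). Ctsd ranges from 0.8 to 1.72 over the subsets, and Cst3 lies under 1 in each of them other than the cells with 10 to 15% mitochondrial UMIs.

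Measured as variance over mean, Ctsd also varied more from cell to cell than the pump genes examined. The 162 control and 78 mutant RPE-like cells over 10000 UMIs were each thinned to 10000 UMIs. Ctsd then ranged from 0 to 63 UMIs in control (median 9) and from 0 to 91 in mutant (median 14.5), with a variance of 11.9 and 20.9 times its mean, where counting alone gives 1. For Atp6v0b this ratio was 2.42 and 1.81, for Atp6v1g1 1.29 and 1.64 and for Lamp1 1.4 and 1.14. Gpnmb stood between them on this ratio, at 7.27 and 10.2. At an equal relative spread the ratio grows with the mean. The mean was 13.5 and 20.6 UMIs for Ctsd, 5.79 and 6.56 for Gpnmb and 5.27 in both libraries for Atp6v0b. The order of Ctsd and Gpnmb is therefore not an order of relative spread. At the lower depth of 2000 UMIs, which kept 244 control and 122 mutant cells, a cell held a median of 6 V-ATPase UMIs in both libraries (4 to 9 and 4 to 7 between the quartiles), and of 5 and 6 cathepsin UMIs.

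Cells with many Cst3 UMIs mostly had many Ctsd UMIs, although some cells rich in Ctsd had little Cst3, which encodes cystatin C, a secreted inhibitor of cysteine cathepsins and not of the aspartic protease cathepsin D. Over the thinned cells Spearman's rho of Ctsd was 0.73 and 0.71 with Cst3, 0.65 and 0.51 with Ttr (the thyroid hormone carrier transthyretin), and 0.60 and 0.29 with Rlbp1, the retinaldehyde-binding protein. It was 0.40 and 0.38 with Atp6v0b, close to 0 with Atp6v1g1 (-0.00 and -0.07), and negative with Gpnmb (-0.28 and -0.38). These cells share their library, and the values are descriptions.

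The Cst3 counts fell into a low and a high range with few cells between them. A limit of 15 UMIs, set after these values were seen, put 59 control (36.4%) and 33 mutant cells (42.3%) in the high range, and 2 and 6 cells lay from 10 to 20 UMIs. In the high range Ctsd averaged 26.2 UMIs in control and 34.9 in mutant (ratio 1.33, 1.23 to 1.44), and Rlbp1 7.02 and 3.42 (0.488, 0.393 to 0.602). In the low range Ctsd averaged 6.25 and 10.1 UMIs (1.62, 1.43 to 1.83) although its median was 4 in both. Rlbp1 averaged 2.06 and 1.76 UMIs there (0.853, 0.65 to 1.11), with an interval that holds 1. Cst3 itself sets these ranges and so is not compared within them, and since Cst3 differed between the libraries the same limit may take different cells from each.

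**Figure D5:**
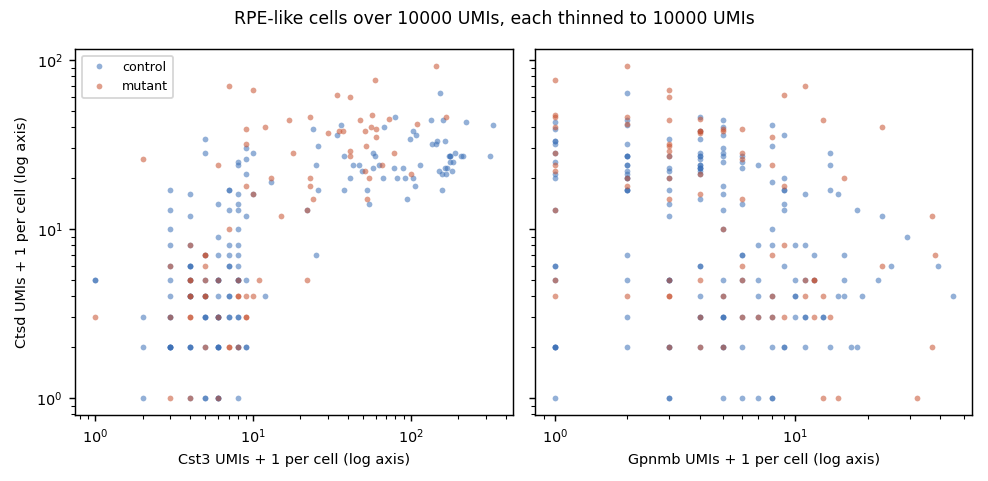
UMIs of Ctsd against those of Cst3 (left) and of Gpnmb (right) in RPE-like cells over 10000 UMIs, each cell thinned to 10000 UMIs and shown as count plus 1 on log axes, with control cells in blue and mutant cells in orange. Cells form a low and a high Cst3 range, cells of the high range mostly have more Ctsd, and Ctsd is mostly low in the cells with the most Gpnmb.

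Over all RPE-like cells, Cst3 was at 3788 CPM in control and 2376 CPM in mutant, a ratio of 0.627 (0.606 to 0.649). It was lower in the mutant at a mitochondrial share of up to 5% (0.378), but higher from 10 to 15% (1.45, 1.27 to 1.66). The Y-positive mutant cells had 3632 CPM and the Xist-positive ones 1510 CPM. Cstb, a cytosolic cystatin, was at 200 and 211 CPM (1.05, 0.931 to 1.19). Of the 4 listed inhibitors 3 were measured, of which Cst3 was at least 1.5-fold lower (8.38% of all genes were) and Cst6, with 10 and 11 UMIs, at least 1.5-fold higher (5.18% were), with an interval of 0.853 to 5.81 that holds 1.

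The hydrolase and lysosomal membrane lists had medians near that of all genes in RPE-like cells. Among all genes 5.18% were higher and 8.38% lower, against which the counts of these and the following lists are to be read. Of 33 hydrolases and cofactors 32 were measured, 1 was higher (Arsb, 28 and 22 UMIs, ratio 1.58, 0.862 to 2.86) and 1 lower, and the median log2 ratio was -0.037. Gusb, the lysosomal beta-glucuronidase, was the lower one, at 38.7 and 25.3 CPM (0.652, 0.459 to 0.912). Manba had a ratio of 0.671 (0.347 to 1.23), and Glb1, the lysosomal beta-galactosidase, went from 26.7 to 39.2 CPM (1.47, 1.07 to 2.01), just under the limit. The 14 measured of 16 lysosomal membrane genes had a median of -0.0037, with 0 higher and 2 lower. The lower ones were Slc38a9, an amino acid transporter that senses arginine for mTORC1, at 20.3 and 8.06 CPM from 76 and 15 UMIs (0.397, 0.212 to 0.697), and Slc17a5, a sialic acid exporter, at 15 and 9.67 CPM (0.647, 0.358 to 1.12). Mcoln1, a calcium channel, had 1.31 (0.747 to 2.24) and Ostm1, which partners the chloride transporter Clcn7, 1.12 (0.847 to 1.47).

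Among the 11 genes that assemble or assist the pump, 10 were measured, 0 were higher and 1 was lower (8.38% of all genes were), with a median of -0.13. The lower one was Dmxl1, a rabconnectin that helps V1 join V0, at 39 and 25.8 CPM (0.661, 0.467 to 0.922), and Oxr1 followed with 0.816 (0.594 to 1.11). Vma21, an assembly chaperone, had 1.11 (0.892 to 1.37), Wdr7 1.08 (0.619 to 1.83) and Tcirg1 1.05 (0.492 to 2.12). Of the 6 sorting genes, all measured, M6pr was at 29.7 and 38.7 CPM (1.31, 0.956 to 1.77), Sort1 had 1.13, Gnptg 1.05 and Igf2r 0.894. The lower one, Gnptab, had 34 and 11 UMIs (0.651, 0.298 to 1.32).

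Of the MiT/TFE factors, Mitf, the master regulator of pigment cells, was at 228 and 168 CPM (0.734, 0.643 to 0.837), with 0.787 (0.595 to 1.03), 0.744 and 0.578 in the 3 mitochondrial ranges but 1.27 (0.541 to 2.9) in cells of up to 2000 UMIs. Tfe3 had 50 and 17 UMIs (0.684, 0.37 to 1.21), Tfec 30 and 20 (1.34, 0.722 to 2.44) and Tfeb 11 and 7. The 11 melanosome genes had a median of -0.086 with 0 higher and 0 lower: Oca2 was at 1.06 (0.931 to 1.21), Tyr at 1.03 (0.963 to 1.1), Gpr143 at 0.803 (0.625 to 1.03), and Rab38, which sorts cargo to melanosomes, at 271 and 190 CPM (0.703, 0.621 to 0.794).

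Over the 13 other named classes the median log2 ratio of the measured members ran from -0.26 in Schwann cell precursor-like cells to 0.065 in periocular mesenchyme-like cells, and without the first it did not fall below -0.047. Schwann cell precursor-like cells, a small class of 38 control and 39 mutant cells, had 0 of 26 measured members higher and 4 lower, where 10.2% and 10.5% of 7113 genes were and the median of all genes was -0.018. Their summed member level went from 3184 to 2751 CPM (ratio 0.864, 0.81 to 0.921), with 0.831 (0.758 to 0.91) for V-ATPase genes and 0.873 (0.787 to 0.968) for cathepsins. The lower members were Ctsc (41 and 21 UMIs, 0.46, 0.258 to 0.796), Ctso (16 and 9 UMIs), Atp6v1b2 (23 and 13 UMIs) and Atp6v0e2 (22 and 16 UMIs), and the last 3 intervals hold 1. In macrophage-like cells 0 of 27 measured members differed by 1.5-fold in either direction, where 7.98% of 8022 genes were higher and 6.62% lower. Ctsb stood at 1989 and 1987 CPM and Ctsd at 1292 and 1307 CPM there. In melanocyte-like cells, which derive from neural crest, 1 of 26 was higher (Atp6v0a2, 11 and 13 UMIs, 1.89, 0.779 to 4.65) and 1 lower (Atp6v1c1, 49 and 20 UMIs, 0.651, 0.367 to 1.12), where 9.45% and 13.0% of 6485 genes were. Ctsd was at 396 and 411 CPM in these cells. In retinal progenitor-like cells 1 of 34 was higher and 1 lower, where 3.41% and 2.22% of 14161 genes were. The higher one was Ctsk, from 32 and 66 UMIs (1.53, 0.986 to 2.4), and the lower one Gpnmb, from 1.3 to 0.674 CPM (0.518, 0.308 to 0.86). In periocular mesenchyme-like cells 1 of 32 was higher and 1 lower, where 5.84% and 2.90% of 14585 genes were. The higher one was Atp6v1e2, with 9 and 14 UMIs (2.1, 0.846 to 5.49), and the lower one again Gpnmb, with 52 and 23 UMIs (0.596, 0.348 to 0.992). RPE-like and melanocyte-like cells, the classes rich in Gpnmb, together made up 419 control and 234 mutant cells, and the part of free RNA in these low counts was not tested.

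In the remaining classes few members passed 1.5-fold, mostly on low counts. Neurogenic progenitor-like cells had 0 of 28 measured members in either direction (3.31% of genes higher, 3.34% lower), photoreceptor precursor-like cells 0 of 25 (4.28% and 5.17%) and amacrine-like cells 0 of 26 (4.67% and 5.26%). Retinal ganglion cell-like cells had 1 of 28 higher (Ctsk) and 0 lower (3.88% and 3.43% of genes), and endothelial-like cells 1 of 27 higher (Atp6v0a1) and 1 lower (Ctsf, beside 6.18% and 6.79%). In muscle-like cells 2 of 28 were higher and 0 lower (7.66% and 4.77% of genes): Ctsh, and Ctsk with 6 and 19 UMIs (3.94, 1.51 to 12.1), of which 100% and 78.9% came from the 5 richest cells. Surface epithelium-like cells had 2 of 27 higher (Atp6v0e2 and Ctsf) and 1 lower (9.61% and 8.03% of genes), which was Ctsc, with 52 and 37 UMIs (0.551, 0.351 to 0.856). Erythroid-like cells had 2 of 22 higher (Atp6v0a1 and Atp6v1d) and 2 lower (Lamp2 and Atp6v1a), beside 9.39% and 19.3% of genes. Apart from Ctsk in muscle-like and Ctsc in surface epithelium-like cells, the intervals of the members named in these 8 classes hold 1.

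Atp6ap1, Atp6ap2 and Lamp2 lie on chromosome X, and since the pools differed in sex they were also compared between Y-positive and Xist-positive cells. In the mutant library the ratio of Y-positive to Xist-positive cells was 1.02 (0.871 to 1.19) for Atp6ap1, 0.952 (0.882 to 1.03) for Atp6ap2 and 0.925 (0.835 to 1.02) for Lamp2 in retinal progenitor-like cells. In RPE-like cells it was 1.23 (0.834 to 1.81), 1.29 (0.97 to 1.7) and 1.24 (0.983 to 1.55), with intervals that all hold 1. For genes on other chromosomes it was 1.64 (Ctsd), 1.16 (Gpnmb) and 0.937 (Ctsl) in the same cells. Sex and embryo cannot be told apart in these ratios.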

How the data were processed

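For 2 single-cell libraries (10x 3′) the deposited values were unnormalized UMI counts, aligned to mm10 by the authors with Cell Ranger. The submitters' notes give version 7.1.0 and the matrix headers 3.1.0. The shallowest barcode held 500 UMIs. Cells with under 200 genes or over 15% mitochondrial UMIs were left out, and Scrublet (scanpy 1.11.5, assuming 0.8% doublets per 1000 barcodes) removed 424 and 442, or 3.55% and 3.40%, against 9.55% and 10.4% assumed, so doublets remain. Removing cells over 2000 counts as doublets, as the study states, would remove 81.2% and 82.2% of kept cells and was only an alternative.

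Both libraries were clustered together on 1881 genes without the members, listed genes or markers (30 components, 15 neighbours, Leiden 1.0, macrophage and granulocyte clusters divided further), giving 38 clusters, 9 unnamed. Score limits for names and that division were set after seeing the data. These rebuilt names may not match those of the study.

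UMIs were summed per class and library, scaled to CPM, and compared as ratios with exact conditional binomial intervals (95%). Exact Poisson and Clopper-Pearson intervals were used for levels and shares. Members needed 20 UMIs over both libraries. Calls were at 1.5-fold between genotypes and 2-fold between classes. Members with at least 50 UMIs in RPE-, melanocyte- or macrophage-like cells were named, with full values for those past 1.5-fold or over 1000 UMIs in RPE-like cells. From other lists the 2 highest and 2 lowest ratios among genes with 50 UMIs were named, plus Tcirg1 and the MiT/TFE factors. Cst6, Gnptab, Ctsk, Atp6v1g2, rare paralogs and cell-to-cell values named beyond this rule were chosen after their values were seen. Members and lists were chosen with earlier results of these data known. Gene positions are from GENCODE on GRCm38. The intervals and calls were tried on simulated counts that held counting error only. Variation between cells and embryos was left out of them, so they do not show how the method deals with it.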

Additional observations from a re-analysis of the deposited data

How the results depend on the processing

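The median log2 ratio of V-ATPase genes in RPE-like cells kept its sign under the 15 alternatives and ranged from -0.23 to -0.0012. The cathepsin median, 0.032 as reported, went to -0.33 with cells of up to 5% mitochondrial UMIs and to 0.24 after thinning each cell to 2000 UMIs. The count of higher members, 2 as reported, became 0 with up to 5% mitochondrial UMIs, without cells over 20000 or over 2000 UMIs, with Xist and no Y-linked UMIs, without cells holding Pax3 or macrophage marker UMIs, after thinning, and at 2-fold. It became 1 without the 5 richest cells, with totals free of mitochondrial and haemoglobin genes, at Leiden resolution 2.0 and with a minimum of 50 UMIs. The count of lower members, 2 as reported, became 1 with up to 5% mitochondrial UMIs, without doublet removal, without cells over 20000 UMIs, after thinning, at Leiden resolution 2.0 and at 2-fold, 0 without cells over 2000 UMIs or with a minimum of 50 UMIs, 4 among cells with Xist and no Y-linked UMIs, and 5 from the mean of per-cell CPM. The share of all genes called under each alternative is not given, so these counts cannot be set against a background. Subsets also held fewer cells (for example 144 and 100 with up to 5% mitochondrial UMIs), and the causes of the changes were not tested. For single members 272 values stayed within their counting interval and 76 moved beyond it, 10 of them for Ctsd, whose log2 ratio ran from 0.018 to 0.64. No paired analysis was possible because each genotype had 1 library. Counts under about 50 UMIs limit what can be seen of Ctsk, Ctsh, Atp6v1g2 and Atp6v0c in RPE-like cells.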

Other observations

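Ctsg, the granule protease cathepsin G of neutrophils and mast cells, had 292 UMIs in 4 cells of the control library and 7 UMIs in 1 cell of the mutant library. Of the control UMIs, 291 lay in 3 cells of clusters that were left unnamed. Ctsw, a cathepsin of cytotoxic lymphocytes, stood at 7.13 and 7.53 CPM in endothelial-like cells, from 16 and 12 of the 21 and 17 UMIs found in all kept cells of control and mutant. Ctse, an aspartic protease of blood and gut cells, had 12 and 11 UMIs, and Atp6v1b1, the kidney form of subunit B, was highest in retinal progenitor-like cells at 2.48 and 2.22 CPM.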
